A study of Rattus norvegicus with 18 samples.

Results

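The 9 genes described here, Gclc, Gclm, Gsr, Gpx1, Gpx3, Nqo1, Hmox1, Txnrd1 and Srxn1, make, recycle or use glutathione and thioredoxin, or are textbook targets of the transcription factor NRF2. The mu-class glutathione S-transferases (Gstm) were left out of the set. The members were chosen by name, and every probe set annotated to them was taken, which gave 13 probe sets of the 31042 on the array that are not controls. Of the 13, 11 were bright enough to be tested among 18625 probe sets in all. The other 2, both of Srxn1, are given as values without a test. The question was whether these antioxidant genes differ in the kidney of a rat strain in which some Gstm transcripts are low.

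Whole kidneys came from 9 congenic S.SHR(2) rats and from 9 Dahl salt-sensitive (Dahl S) rats, and each RNA was hybridised to its own Affymetrix rat expression array. Dahl S, written SS/Jr in the labels, is inbred and prone to hypertension and renal injury, and S.SHR(2) is a congenic made from SS/Jr and the spontaneously hypertensive rat SHR/NHsd. The name of the congenic places the SHR segment on chromosome 2, so both strains share the Dahl S background elsewhere. The design text gives male rats of 3 ages with 3 rats per strain and age, but the labels state sex, age and diet for 2 Dahl S rats only, which were males of 4 and 12 weeks on a diet with 0.3% NaCl. In the order of deposit the arrays stand in 3 runs of 6, each with 3 rats of either strain. These runs are called deposit blocks here. The Dahl S rat labelled as 4 weeks old stands in block 1 and the one labelled as 12 weeks old in block 2, and no age was assigned to the other 16 rats. The blocks were used only as a split by deposit order, within which age, processing and any other shared property cannot be told apart.

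NRF2, encoded by Nfe2l2, is held at a low level by KEAP1, which presents it for degradation. Electrophiles and oxidants modify KEAP1, and NRF2 then enters the nucleus, pairs with a small MAF protein and binds the antioxidant response element in the promoters of its targets. Glutathione is made by glutamate-cysteine ligase, whose catalytic subunit is encoded by Gclc and whose modifier subunit is encoded by Gclm. It is the cofactor of the glutathione S-transferases, which join it to electrophiles, and of the glutathione peroxidases, which reduce peroxides. The proximal tubule of the kidney takes up and breaks down glutathione from the blood and is the main source of the peroxidase GPX3 in plasma.

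Promoter sequences of 7 of the 9 members, in 8 windows, were matched in RefSeq (assembly GRCr8), each from 250 bases before to 50 bases after the annotated start. Gsr and Hmox1 were not among them. The core of the antioxidant response element, TGACNNNGC, was searched on both strands together with the variant TGAGNNNGC and with the AP-1 motif TGACTCA, whose letters can overlap with either. The core was found once in Gclm, with its first base 172 bases before the start, and once in a window of Txnrd1, 78 bases before the start. Across all 33469 promoter windows of this length, 12.1% held the core, 17.2% the variant and 4.63% the AP-1 motif. Srxn1 held 3 matches of the variant and 2 of the AP-1 motif, and Gpx1 held 1 match of the variant. A match describes the letters of the window and is not a measured binding site. The window of Gclm is shown because Gclm is the single member on chromosome 2 (whether it lies inside the introgressed segment was not tested), and those of Txnrd1 and Srxn1 because a probe set of each was highest in the third run of arrays. A probe set of Gclc was highest in that run too, but its window held none of these motifs and is not shown. The other window of Txnrd1 and those of Gpx3 and Nqo1 held none either. Any link between a motif and the level in that run was not tested. Capitals mark the matches of the core and of its variant. Gclm lies at chr2:213031885-213032184 on the plus strand, the Txnrd1 window at chr7:22755855-22756154 on the minus strand, and Srxn1 at chr3:161064562-161064861 on the plus strand.
Gclm: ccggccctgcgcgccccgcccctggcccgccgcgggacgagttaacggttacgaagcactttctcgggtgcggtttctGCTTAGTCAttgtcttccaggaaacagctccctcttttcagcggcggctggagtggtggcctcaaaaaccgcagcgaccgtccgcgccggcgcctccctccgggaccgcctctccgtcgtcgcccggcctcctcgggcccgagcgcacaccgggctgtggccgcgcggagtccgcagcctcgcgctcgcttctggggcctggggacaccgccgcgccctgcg
Txnrd1: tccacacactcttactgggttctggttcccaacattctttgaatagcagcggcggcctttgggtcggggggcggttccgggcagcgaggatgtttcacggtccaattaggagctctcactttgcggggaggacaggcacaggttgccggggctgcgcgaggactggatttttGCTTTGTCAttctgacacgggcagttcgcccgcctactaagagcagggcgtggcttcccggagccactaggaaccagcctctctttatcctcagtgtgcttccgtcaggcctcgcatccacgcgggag
Srxn1: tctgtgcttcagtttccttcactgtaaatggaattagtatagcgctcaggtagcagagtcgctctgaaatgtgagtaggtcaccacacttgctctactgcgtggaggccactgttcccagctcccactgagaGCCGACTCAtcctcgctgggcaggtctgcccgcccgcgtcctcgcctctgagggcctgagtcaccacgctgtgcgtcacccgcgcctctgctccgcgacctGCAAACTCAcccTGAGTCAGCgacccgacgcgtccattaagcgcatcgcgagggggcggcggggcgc

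The deposited values are intensities that had been scaled to the same trimmed mean, 150 units, on every array. The kidney markers Umod, Slc34a1, Aqp2, Slc12a1, Slc12a3 and Nphs1 were present on all arrays. Of 7 measured macrophage markers 6 were bright enough to be tested, with C1qa between 129.5 and 408 units and Cd163 at most 15.6 units. Of 3 measured adrenal cortex markers 1 was, with Cyp11a1 between 38.4 and 93.2 units, Star at most 30 units and Cyp11b1 at most 11.3 units. RNA quality controls differed among the arrays. The 3′/5′ ratio of the beta-actin control probe sets, which rises where the 5′ part of a transcript is under-represented, ran from 2.27 to 6.83 in S.SHR(2) and from 2.22 to 5.88 in Dahl S. By block it ran from 2.22 to 6.83 in block 1, from 3.14 to 5.88 in block 2 and from 2.27 to 3 in block 3. The lowest ratio of block 1, 2.22, belonged to Dahl S replicate 1, while the other 5 arrays of that block were at 3.11 or above. The summed level of 6 tubular injury markers had medians of 3656, 5550 and 10920 units in blocks 1, 2 and 3, and ran from 2209 to 10310 units in S.SHR(2) and from 3339 to 12940 units in Dahl S. The brightest probe set of an array lay between 11117 and 14648 units in blocks 1 and 2 and between 7508 and 9498 units in block 3. These measures are set beside the results they move with.

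None of the 11 tested member probe sets passed the test between the strains. In the same fit 23 of all 18625 probe sets, 0.123%, passed an adjusted p of 0.05, so a list of 11 without a call does not stand out from the array (limma, Benjamini-Hochberg adjustment over all probe sets tested). At an unadjusted p under 0.05 the count was also 0 of 11, against 748 probe sets, or 4.02%, overall. With the deposit block as a factor the count was again 0 of 11, against 92 probe sets, or 0.494%.

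The mu-class transferases Gstm7 and Gstm1, both on chromosome 2, fell in S.SHR(2). Gstm7 intensity was 45.5 ± 11.3 units in S.SHR(2) and 149 ± 33.2 units in Dahl S (SD, n = 9 each), a log2 difference of -1.38 ± 0.12 (SE, limma adjusted p = 9.6e-07). Gstm1 intensity was 105 ± 29.2 units in S.SHR(2) and 294 ± 81.6 units in Dahl S (SD, n = 9 each), a log2 difference of -1.33 ± 0.17 (SE, limma adjusted p = 3.3e-04). These 2 were the called ones of 5 Gstm genes tested, and 4 of the 5 were called with the deposit block as a factor. Gstm2, at -0.46 ± 0.23 (log2 difference, SE, limma adjusted p = 1), was called in neither fit. The Gstm genes are close paralogs, and their probe sets may share signal. After quantile normalization the log2 differences of the members, S.SHR(2) from Dahl S, ran from -0.19 to 0.11, with 4 above and 7 below 0. This range and split depended on the scaling. For arrays centred on their medians Gclm was at 0.19. The dimmer probe set of Gclc, Gpx3 and the brighter probe set of Txnrd1 then turned positive, at 0.04, 0.10 and 0.05. The shares and medians that follow are those after quantile normalization. Of all probe sets tested, 51.5% were above 0. The members had a median of -0.01, against 0.00 over all probe sets tested. Their median absolute difference was 0.03, against 0.07 over all probe sets. The median standard error was 0.11 for the members and 0.12 for all probe sets, so the members were measured with the usual precision of these arrays.

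**Figure D1:**
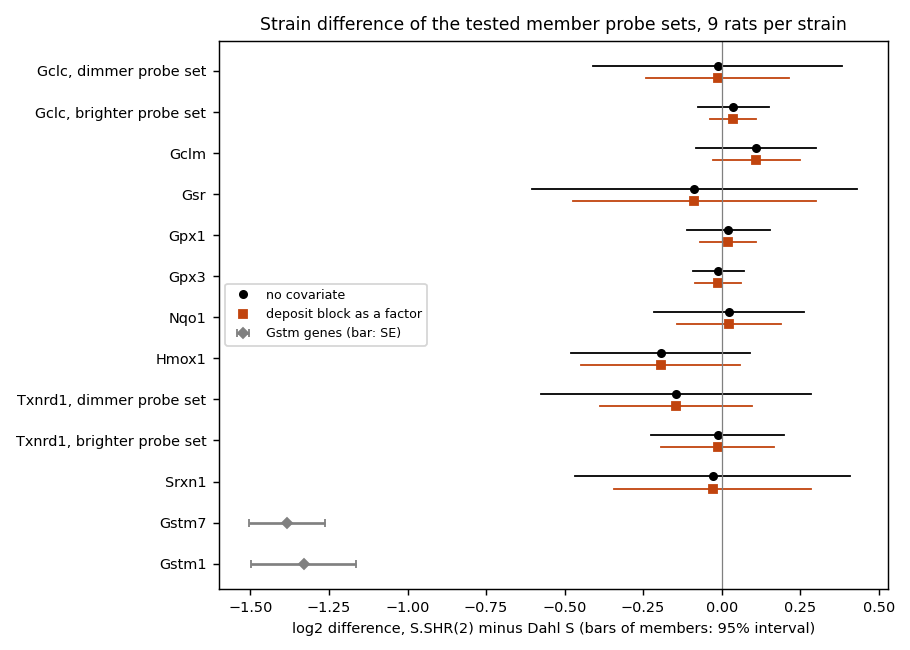
Log2 difference of S.SHR(2) from Dahl S for each tested member probe set (points, 9 rats per strain), with 95% intervals from the fit without covariates in black and with the deposit block as a factor in orange, and Gstm7 and Gstm1 with SE bars in grey. Every member interval crosses 0 and every member value lies between -0.19 and 0.11, while Gstm7 is at -1.38 and Gstm1 at -1.33.

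Gclm, the modifier subunit, lies on chromosome 2, and its single probe set had the highest log2 difference among the members. Its intensity ran from 2287 to 3254 units with a median of 2877 in S.SHR(2), and from 1921 to 3186 units with a median of 2423 in Dahl S. The ranges overlapped over most of their width. The log2 difference was 0.11 ± 0.09 (SE, unadjusted p = 0.24, limma adjusted p = 1), and its 95% interval allows 0.946-fold to 1.23-fold. With the deposit block as a factor the standard error shrank to 0.07 and the interval to between 0.982-fold and 1.19-fold (limma adjusted p = 0.64). The difference was positive in each block, at 0.17, 0.04 and 0.12 in blocks 1, 2 and 3. In none of them did the ranges of the strains separate in deposited units. These values are those after quantile normalization. The strain difference over all blocks was 0.15 for the values as deposited and 0.19 for arrays centred on their medians.

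Gclc, the catalytic subunit, lies on chromosome 8 and had 2 probe sets. The brighter ran from 5006 to 6908 units with a median of 6135 in S.SHR(2), and from 4682 to 6557 units with a median of 5743 in Dahl S. Its log2 difference was 0.04 ± 0.05 (SE), an interval of 0.949-fold to 1.11-fold, which is among the narrowest of the members. The strain difference of this probe set was 0.08 for the values as deposited and 0.12 for arrays centred on their medians. The dimmer ran from 2134 to 6272 units with a median of 4346 in S.SHR(2), and from 2882 to 5475 units with a median of 4601 in Dahl S. It varied more among rats, and its log2 difference of -0.01 ± 0.19 (SE) leaves room for 0.753-fold to 1.30-fold. The lowest value of that probe set, 2134 units, came from S.SHR(2) replicate 1, the array with the highest beta-actin ratio, 6.83.

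Gsr encodes glutathione reductase, which returns oxidised glutathione to its reduced form, and lies on chromosome 16. Its intensity ran from 85.4 to 285 units with a median of 118 in S.SHR(2), and from 79.4 to 355 units with a median of 122 in Dahl S. The medians nearly coincided and both strains had a tail of high rats. The log2 difference was -0.09 ± 0.25 (SE), with an interval of 0.657-fold to 1.35-fold, the widest among the members. In block 1 the S.SHR(2) rats were at 85.4, 123 and 118 units and the Dahl S rats at 355, 132 and 122 units, a log2 difference of -0.66 ± 0.29 (SE, unadjusted p = 0.035, limma adjusted p = 0.45). The Dahl S value of 355 units came from replicate 1, the array with the beta-actin ratio of 2.22. Without that rat the strain difference over all blocks was 0.07. In block 3 the difference was 0.41 ± 0.29 (SE, limma adjusted p = 0.67).

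Gpx3 and Gpx1 encode selenium-dependent peroxidases, which use glutathione to reduce peroxides. Gpx3, the secreted form, on chromosome 10, ran from 7190 to 11861 units with a median of 10692 in S.SHR(2), and from 6829 to 12269 units with a median of 10313 in Dahl S. Its log2 difference of -0.01 ± 0.04 (SE) had an interval of 0.939-fold to 1.05-fold, which holds for the quantile-normalized scale. The strain difference was 0.06 for the values as deposited and 0.10 for arrays centred on their medians. The latter lies above the upper end of that interval, 0.07 on the log2 scale. Gpx1, the cytosolic form, on chromosome 8, ran from 4399 to 7579 units with a median of 6048 in S.SHR(2), and from 4189 to 6790 units with a median of 5419 in Dahl S. Its log2 difference was 0.02 ± 0.06 (SE), an interval of 0.926-fold to 1.11-fold. The strain difference of Gpx1 was 0.09 for the values as deposited and 0.13 for arrays centred on their medians. For both peroxidases the strains covered nearly the same range.

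The classic NRF2 targets Nqo1 and Hmox1 gave low signals, and both lie on chromosome 19. Nqo1 encodes a quinone reductase, and its intensity was 88.6 ± 17.3 units in S.SHR(2) and 88.7 ± 15.9 units in Dahl S (SD, n = 9 each). The log2 difference was 0.02 ± 0.11 (SE), with an interval of 0.862-fold to 1.20-fold. Hmox1 encodes the inducible heme oxygenase, which breaks heme down, and it had the lowest log2 difference among the members. It ran from 16.7 to 51.4 units with a median of 37.3 in S.SHR(2), and from 29.2 to 61.6 units with a median of 41.9 in Dahl S. The log2 difference was -0.19 ± 0.14 (SE, unadjusted p = 0.17, limma adjusted p = 1), an interval of 0.717-fold to 1.07-fold. At this brightness the constant of 16 units added before the log shrinks a fold change. The difference was negative in each block, at -0.04, -0.42 and -0.12 in blocks 1, 2 and 3, and none of these passed the test.

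On the thioredoxin side, Txnrd1 encodes the cytosolic thioredoxin reductase, on chromosome 7, and had 2 probe sets. The brighter ran from 552 to 946 units with a median of 785 in S.SHR(2), and from 530 to 823 units with a median of 778 in Dahl S. Its log2 difference was -0.01 ± 0.10 (SE), an interval of 0.855-fold to 1.15-fold. The dimmer ran from 163 to 443 units with a median of 173 in S.SHR(2), and from 165 to 411 units with a median of 200 in Dahl S. Its log2 difference was -0.15 ± 0.21 (SE), an interval of 0.672-fold to 1.22-fold. In both strains the high values came mostly from block 3.

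Srxn1 encodes sulfiredoxin, which repairs overoxidised peroxiredoxins, and lies on chromosome 3. Its brightest probe set ran from 33.1 to 120 units with a median of 78.2 in S.SHR(2), and from 38.2 to 128 units with a median of 80.1 in Dahl S. The log2 difference was -0.03 ± 0.21 (SE), an interval of 0.723-fold to 1.33-fold. The 2 probe sets below the brightness limit are a description only. The first of them ran from 8.7 to 42.0 units in S.SHR(2) and from 4.8 to 32.9 units in Dahl S. The second ran from 1.5 to 15.7 units in S.SHR(2) and from 1.1 to 13.9 units in Dahl S, which is near the bottom of the scale.

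**Figure D2:**
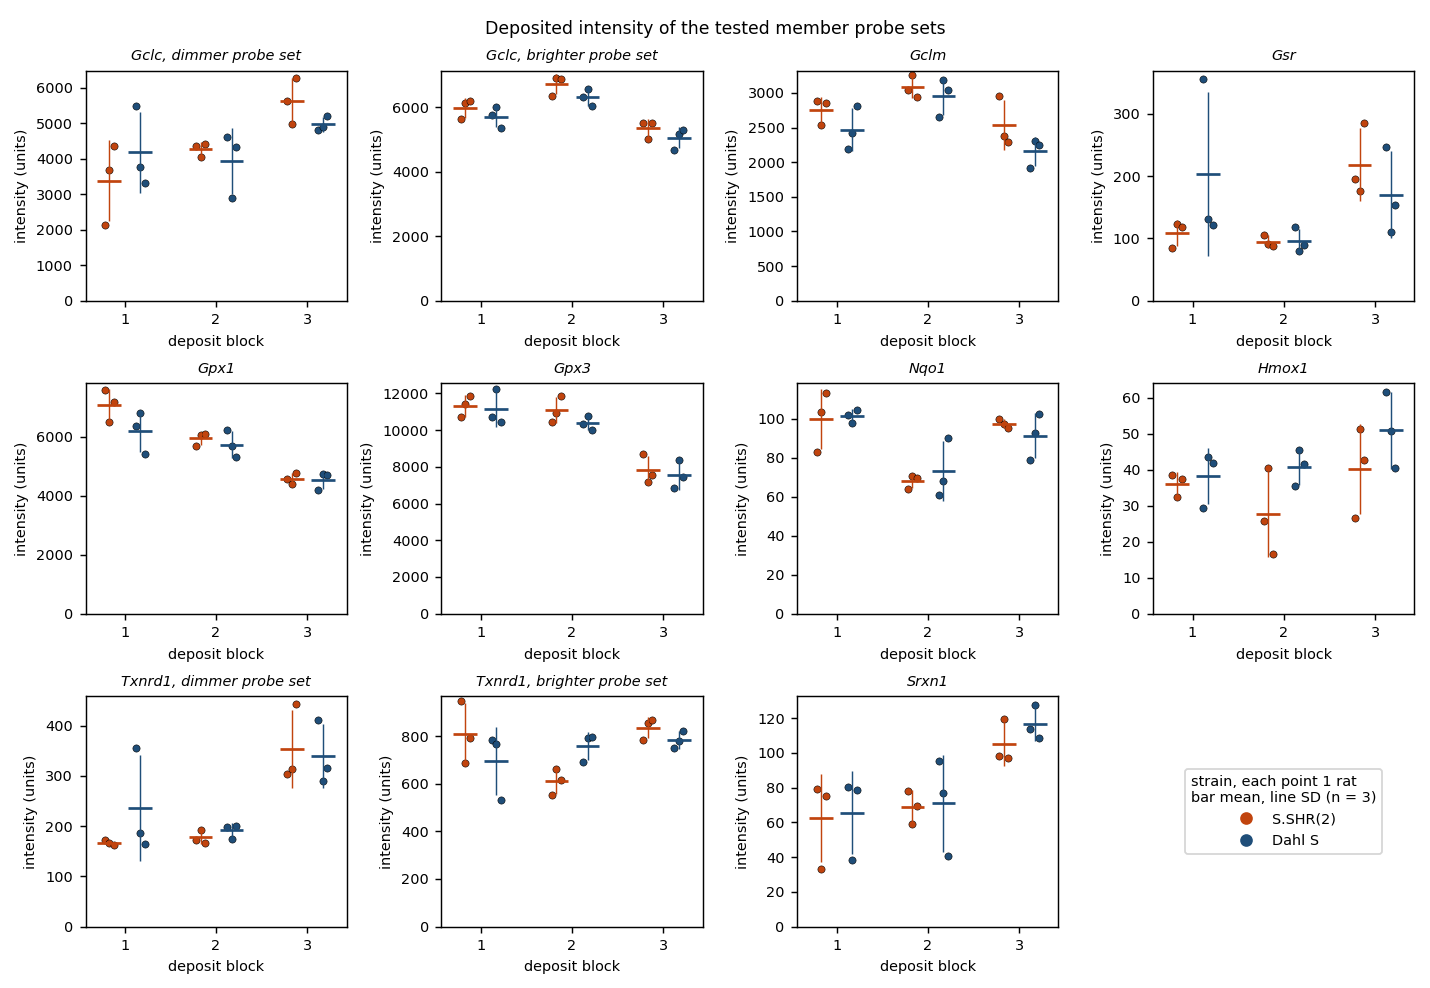
Deposited intensity (units, linear axis from 0) of the 11 tested member probe sets by deposit block, with each point 1 rat, S.SHR(2) in orange left of Dahl S in blue, bars at the mean and lines for the SD (n = 3). In deposited units the strains overlap in every panel and block except for the brighter probe set of Txnrd1 in block 2 (9.27% of all tested probe sets separate in that block), and Gsr and the dimmer probe set of Txnrd1 show a single high Dahl S rat in block 1 at 355 and 356 units.

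Within the blocks, where 3 rats of each strain stand against each other, no member was called either. The count was 0 of 11 in each block, against 0.161% of all probe sets in block 1, 0.123% in block 2 and 0.338% in block 3. At an unadjusted p under 0.05 there was 1 member in block 1 (Gsr), against 10.4% of all probe sets, 1 in block 2 (the brighter probe set of Txnrd1), against 3.16%, and 0 in block 3, against 10.4%. In deposited units the strains had separate ranges for 0 of 11 members in block 1, 1 in block 2 (the same Txnrd1 probe set) and 0 in block 3, against 10.6%, 9.27% and 20.4% of all probe sets tested. On the normalized log2 scale the counts were 1, 1 and 0 of 11, against 10.8%, 9.21% and 18.9%, since the brighter probe set of Gclc separated as well, higher in S.SHR(2) of block 1. These shares of separate ranges are at or below the background. The 1 of 11 at an unadjusted p under 0.05 in block 2 is above its background of 3.16%, but it is a single probe set, the brighter of Txnrd1. In block 2 the S.SHR(2) rats were at 552, 661 and 617 units and the Dahl S rats at 691, 792 and 796 units. The log2 difference was -0.29 ± 0.14 (SE, unadjusted p = 0.042, limma adjusted p = 1), while the same probe set was at 0.21 in block 1 and at 0.04 in block 3. The dimmer Txnrd1 probe set was at -0.10 in block 2 and overlapped between the strains.

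Whether the strain difference itself varied among the blocks was tested with an F test of the interaction. None of the 11 members passed, against 1 probe set, or 0.00537%, of all those tested. The brighter probe set of Txnrd1 had an unadjusted p of 0.044 in this test (limma adjusted p = 0.74), and Gsr had an unadjusted p of 0.053 (limma adjusted p = 0.74).

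The members did differ between the deposit blocks over both strains. By an F test of the block terms beside strain, 8 of 11 member probe sets passed, against 50.1% of all probe sets, so a majority of the array moved with the block and a high share among the members is not particular to them. Among all 9336 called probe sets, 4742 were higher in block 3 than in block 1 (25.5% of those tested) and 4594 lower (24.7%). Of the 8 member probe sets called, 5 were higher and 3 were lower. This split depended on the scaling, with 4 higher and 5 lower both for the values as deposited (24.1% and 25.8% of all probe sets) and for arrays centred on their medians (29.3% and 20% of all probe sets). The median log2 difference of block 3 from block 1 was 0.17 for the members and 0.01 for all probe sets. The 8 belong to Gclc (both probe sets), Gclm, Gsr, Gpx1, Nqo1, Txnrd1 (the dimmer probe set) and Srxn1 (its brightest). Gpx3, Hmox1 and the brighter probe set of Txnrd1 did not pass.

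The clearest block difference was that of the dimmer probe set of Txnrd1. In S.SHR(2) it read 172, 166 and 163 units in block 1, 173, 192 and 167 units in block 2, and 304, 314 and 443 units in block 3. In Dahl S it read 356, 185 and 165 units in block 1, 199, 175 and 200 units in block 2, and 411, 290 and 316 units in block 3. In both strains all rats of block 3 were above all rats of block 2, and only Dahl S replicate 1 of block 1 reached the level of block 3. The log2 difference of block 3 from block 1 was 0.77 (limma adjusted p of the block F test = 6.9e-05). Adjusted for the beta-actin ratio it was 0.57, and without Dahl S replicate 1 it was 0.94. The brighter probe set of the same gene differed by 0.12 between these blocks (limma adjusted p = 0.13), so the block difference rests on the dimmer probe set of Txnrd1. Without Dahl S replicate 3 the brighter one was called too (limma adjusted p = 0.026), with -0.24 for block 2 and 0.02 for block 3. Leaving out the pair of arrays whose GAPDH 3′/5′ ratios were highest put it just past the threshold (limma adjusted p = 0.05, rounded), with -0.10 for block 2 and 0.19 for block 3.

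Both probe sets of Gclc were called between the blocks, with differences of unequal size. The dimmer one read 2134, 3676 and 4344 units in S.SHR(2) rats of block 1, 4346, 4045 and 4421 units in block 2, and 5612, 4968 and 6272 units in block 3. In Dahl S it read 5475, 3756 and 3308 units in block 1, 4601, 2882 and 4338 units in block 2, and 4795, 4904 and 5190 units in block 3. Block 3 was highest in both strains on average. The log2 difference of block 3 from block 1 was 0.80 (limma adjusted p of the block F test = 9.5e-05), and 0.48 when adjusted for the beta-actin ratio. The brighter probe set was at 0.21 for block 2 and at 0.17 for block 3 against block 1 (limma adjusted p = 9.7e-04). The sign of that block 3 difference depended on the scaling, with -0.17 for the values as deposited and -0.10 for arrays centred on their medians. Where the probes of either set lie along the transcript was not analysed here.

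Srxn1, by its brightest probe set, read 79.1, 33.1 and 75.0 units in S.SHR(2) rats of block 1, 78.2, 59.3 and 69.5 units in block 2, and 98.4, 120 and 96.9 units in block 3. In Dahl S it read 80.1, 38.2 and 78.6 units in block 1, 95.2, 77.1 and 40.6 units in block 2, and 114, 128 and 109 units in block 3. In these deposited units all 6 rats of block 3 were above all 12 rats of the other blocks, narrowly, at 96.9 against 95.2 units. On the normalized log2 scale Dahl S replicate 4 of block 2 (6.8325) was above S.SHR(2) replicate 9 of block 3 (6.8274). How often blocks separate in this way among all probe sets was not counted, for Srxn1 or the other members. The log2 difference of block 3 from block 1 was 0.75 (limma adjusted p of the block F test = 0.0044) and was as large, 0.79, when adjusted for the beta-actin ratio. Gsr was at -0.49 for block 2 and at 0.37 for block 3 against block 1 (limma adjusted p = 0.011). Adjusted for the beta-actin ratio these were -0.36 and -0.05, and the call was lost (limma adjusted p = 0.17). Without Dahl S replicate 1 they were -0.23 and 0.64 (limma adjusted p = 2.2e-04), and without S.SHR(2) replicate 9 the block 3 value was 0.24 (limma adjusted p = 0.030), so single arrays moved these values by more than 1.5 times.

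Nqo1 had its low point in block 2. In S.SHR(2) it read 83.2, 104 and 113 units in block 1, 64, 70.7 and 69.9 units in block 2, and 100.2, 97.2 and 95.5 units in block 3. In Dahl S it read 102, 98.0 and 105 units in block 1, 60.8, 68.0 and 90.4 units in block 2, and 79.1, 92.8 and 103 units in block 3. All S.SHR(2) rats of block 2 were below those of the other blocks, and in Dahl S 2 of the 3 were. The log2 difference of block 2 from block 1 was -0.43 and that of block 3 was -0.06 (limma adjusted p of the block F test = 0.0016). Gclm was at 0.21 for block 2 and at -0.11 for block 3 (limma adjusted p = 0.0062), and the block 3 value was 0.03 when adjusted for the beta-actin ratio and -0.07 without Dahl S replicate 3.

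Gpx1 was lower in block 3. In S.SHR(2) its mean intensities were 7084, 5943 and 4584 units in blocks 1, 2 and 3, and in Dahl S they were 6191, 5738 and 4540 units. The log2 difference of block 3 from block 1 was -0.25 after quantile normalization (limma adjusted p of the block F test = 0.0016), -0.53 for the values as deposited and -0.46 for arrays centred on their medians. Gpx3 depended on the scaling more strongly. Its deposited mean intensities were 11330, 11080 and 7809 units in S.SHR(2) and 11150, 10370 and 7557 units in Dahl S, in blocks 1, 2 and 3. As deposited, the log2 difference of block 3 from block 1 was -0.55 (limma adjusted p = 3.9e-07), and it was -0.48 for arrays centred on their medians (limma adjusted p = 1.0e-05). After quantile normalization it was 0.01 (limma adjusted p = 0.39). The brightest probe sets of the block 3 arrays were less bright than those of the other blocks, and quantile normalization sets the upper end of all arrays to the same values.

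Hmox1 was not called between blocks, with log2 differences of -0.07 for block 2 and 0.28 for block 3 against block 1 (limma adjusted p = 0.12). All 6 measured tubular injury markers were called between the blocks, against 50.1% of all probe sets, and none between the strains, against 0.123%. For block 3 against block 1, Havcr1 was at 3.89, Lcn2 at 2.82 and Clu at 1.93 on the log2 scale. Between the strains, Spp1, Havcr1, Clu, Lcn2 and Vim were lower in S.SHR(2), from -0.53 for Spp1 to -0.25 for Vim. Krt19 was higher, at 0.21. Summed macrophage markers had medians of 581, 812 and 1064 units in blocks 1, 2 and 3, and summed proximal tubule markers had medians of 28360, 28400 and 24260 units. The part of these cell types, of RNA quality and of age in the block differences was not tested. In whole kidney, fewer cells of a type and less RNA per cell cannot be told apart.

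**Figure D3:**
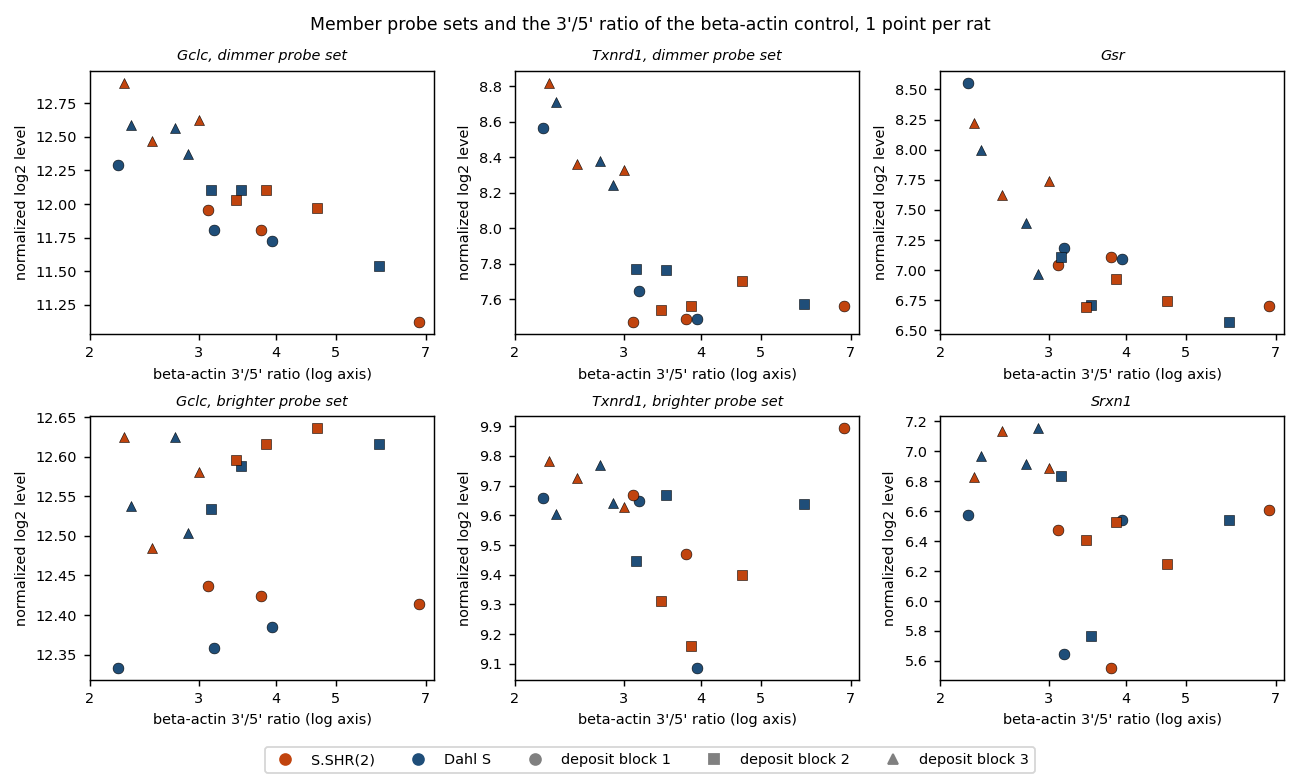
Normalized log2 level of 6 member probe sets against the 3′/5′ ratio of the beta-actin control (log axis), 1 point per rat, orange for S.SHR(2) and blue for Dahl S, with the shape for the deposit block. In the upper row the levels of the dimmer probe sets of Gclc and Txnrd1 and of Gsr are highest where the ratio is low, including Dahl S replicate 1 of block 1 at a ratio of 2.22, while the brighter probe sets of Gclc and Txnrd1 below them do not follow it.

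The wider pathway gave the same count. Of 76 further genes in lists of NRF2 regulators, glutathione metabolism, other glutathione transferases, thioredoxins and peroxiredoxins, superoxide and peroxide removal, and other NRF2 targets, 64 were tested by their brightest probe set. None of the 64 was called between the strains (limma, adjusted over all probe sets tested), against 8 of all 10483 genes, or 0.0763%. With the deposit block as a factor none was called either, against 49 genes, or 0.467%. At an unadjusted p under 0.05 the fit without the block held 3 of the 64, Gpx2, Chac1 and Akr7a2, or 4.69%, against 4.18% of all genes. With the block as a factor it held 11 of the 64, or 17.2%, against 9.88% of all genes. The log2 differences of the 64 were above 0 for 47 and below 0 for 17, with a median of 0.04 against 0.02 over all genes tested. Of all probe sets tested, counted by probe set and not by gene, 51.5% were above 0. Whether the split of the 64 departs from that share was not tested. Between the deposit blocks 43 of the 64 were called, against 49.8% of all genes. Of these, 23 were higher and 20 lower in block 3 than in block 1. Among all probe sets tested, 25.5% were called higher and 24.7% lower.

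Nfe2l2 itself was at 1107 ± 101 units in S.SHR(2) and 1086 ± 132 units in Dahl S (SD, n = 9 each), a log2 difference of 0.01 ± 0.08 (SE). Keap1 was at 231 ± 35.3 units in S.SHR(2) and 217 ± 24.3 units in Dahl S, a log2 difference of 0.09 ± 0.09 (SE). These transcripts say nothing of NRF2 protein, which is controlled mainly through degradation. Both are named for their role in the pathway and were chosen after their values were seen. Among the regulators, the smallest p values belonged to the small MAF partner Mafg at 0.19 ± 0.11 and to Cul3, the scaffold of the KEAP1 ubiquitin ligase, at -0.15 ± 0.13 (log2 difference, SE).

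In glutathione metabolism the smallest p values belonged to Gpx2 and Chac1. Gpx2, a peroxidase known mainly from the gut epithelium, was at 168 ± 37.9 units in S.SHR(2) and 248 ± 103 units in Dahl S (SD, n = 9 each), a log2 difference of -0.46 ± 0.19 (SE, unadjusted p = 0.026, limma adjusted p = 1). Chac1, which degrades glutathione in the cytosol, was at 96.4 ± 27.1 units in S.SHR(2) and 74.7 ± 19.4 units in Dahl S, a log2 difference of 0.35 ± 0.15 (SE, unadjusted p = 0.033, limma adjusted p = 1). Among the other transferases Gstk1 was at 0.20 ± 0.10 and Gsto1 at 0.17 ± 0.12 (log2 difference, SE). Txnip, an inhibitor of thioredoxin, was at -0.21 ± 0.13, and Msrb1, which repairs oxidised methionine, was at 0.06 ± 0.05. Cat, the catalase, was at -0.03 ± 0.08 and the extracellular superoxide dismutase Sod3 at 0.04 ± 0.13. Of the remaining NRF2 targets the aldehyde reductase Akr7a2 was at 0.16 ± 0.06 (unadjusted p = 0.019, limma adjusted p = 1) and the biliverdin reductase Blvrb at 0.19 ± 0.10. None of these passed the test.

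Among rats of 1 strain, the members were set against Gstm1 to see whether they follow the Gstm level. For the brightest probe set of each of the 9 members, Pearson r and Spearman rho were computed over the 9 rats of S.SHR(2) and over the 9 of Dahl S, which gave 18 relations. None had an adjusted p under 0.05 in an exact two-sided permutation test over all pairings (lowest adjusted p 0.077 for Pearson and 0.11 for Spearman). Before adjustment 4 Pearson p values were under 0.05. Gclm was one of them in both strains, with r of -0.72 in S.SHR(2) (exact permutation p = 0.029, adjusted p = 0.15) and -0.80 in Dahl S (exact permutation p = 0.0083, adjusted p = 0.077). Its Spearman rho was -0.75 in S.SHR(2) and -0.85 in Dahl S (exact permutation p = 0.025 and 0.0061, adjusted p = 0.19 and 0.11). Without the 2 rats farthest from the median of Gstm1, r was -0.47 in either strain (n = 7). Leaving out the extreme rats also narrows the range of Gstm1, which by itself weakens r. This step therefore cannot show how far the relation rests on those rats. In Dahl S they were replicate 1, highest in Gstm1 with a beta-actin ratio of 2.22, and replicate 5, lowest with 5.88. These ratios were the lowest and highest of that strain. In S.SHR(2) they were replicates 4 and 5, with ratios of 3.86 and 4.67. The part of RNA quality in these relations was not tested.

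Gclc was at -0.72 in S.SHR(2) (exact permutation p = 0.033, adjusted p = 0.15; rho -0.73, exact permutation p = 0.031, adjusted p = 0.19) and at -0.46 in Dahl S (exact permutation p = 0.23, adjusted p = 0.51). Gsr was at 0.16 in S.SHR(2) (exact permutation p = 0.68, adjusted p = 0.88) and at 0.81 in Dahl S (exact permutation p = 0.0085, adjusted p = 0.077; rho 0.67, exact permutation p = 0.059, adjusted p = 0.27). Without the 2 farthest rats Gclc was at -0.60 in S.SHR(2) and Gsr at 0.54 in Dahl S. The 2 farthest Dahl S rats, replicates 1 and 5, also held the highest and lowest Gsr of that strain, at 355 and 79.4 units. With all levels centred within blocks and pairings exchanged only within blocks, none of the 18 relations passed (216 exact pairings, lowest adjusted p 0.68). None had an unadjusted p under 0.05. With so few pairings a single relation could not pass after adjustment over the 18, however strong it was. The lack of a call therefore does not decide whether the relations hold within blocks. Gclm was then at r of -0.71 in S.SHR(2) (exact permutation p = 0.097) and -0.61 in Dahl S (exact permutation p = 0.23), Gclc at -0.67 in S.SHR(2) (exact permutation p = 0.16) and Gsr at 0.71 in Dahl S (exact permutation p = 0.079), each with an adjusted p of 0.68. Gstm1 itself was called between blocks (limma adjusted p = 0.0095), with its lowest level in block 2, where Gclm and the brighter probe set of Gclc were highest.

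**Figure D4:**
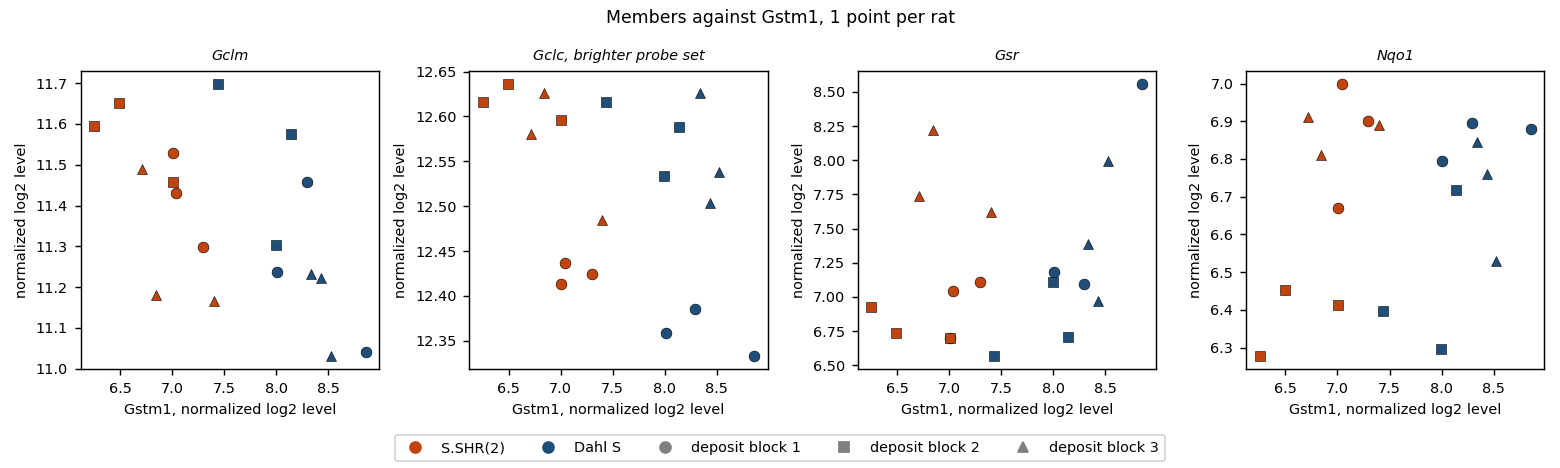
Normalized log2 level of Gclm, Gclc, Gsr and Nqo1 (brightest probe sets) against that of Gstm1, 1 point per rat, orange for S.SHR(2) and blue for Dahl S, with the shape for the deposit block. The strains stand apart along the Gstm1 axis but overlap on the member axes.

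Across the 18 rats the correlations among the brightest probe sets of the 9 members ran from -0.78, between Gclm and Gsr, to 0.54, between Gpx3 and Nqo1, while Gclc and Gclm, the subunits of 1 enzyme, were at 0.39. Nqo1 and Hmox1 were at 0.17. These values describe 18 arrays that share strain and block differences, and no p is given for them. Among all other genes, the pattern of Gclc was most like those of Me1 (r = 0.93), a source of NADPH, and Gpm6a (r = 0.92). Gclm was most like Hykk (r = 0.91) and Tnfaip8 (r = 0.91), and Gsr most like Tsg101 (r = 0.94) and Ryk (r = 0.93). Gpx1 was most like the copper transporter Slc31a1 (r = 0.93) and Ccnd2 (r = 0.90), and Gpx3 most like Mix23 (r = 0.79) and Pln (r = 0.76). Nqo1 was most like Ube2a (r = 0.88) and Emc6 (r = 0.87), and Hmox1 most like the transcription factor gene Cebpd (r = 0.80) and Septin9 (r = 0.79). Txnrd1 was most like Enoph1 (r = 0.85) and Rcc2 (r = 0.84), and Srxn1 most like Limd1 (r = 0.85) and Abcc1 (r = 0.85), a pump of glutathione conjugates.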

How the data were processed

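Whole-kidney RNA from 18 rats was hybridised to 1 Affymetrix array each. The values the authors deposited are intensities on a linear scale with the same trimmed mean of 150 units on every array, as read from the values. What software made them is not given in the sources, and detection calls and scan dates were not used here. The 57 control probe sets were left out, values were transformed as log2(intensity + 16) and quantile normalized, and the 40% dimmest probe sets (mean under 5.48) were left out. Fold changes on this scale are compressed for dim genes. Gene names came from GEO's platform annotation, with symbols and chromosomes from the GRCr8 gene table. No member probe set named several genes. Strains were compared with limma 3.58.1 in R 4.3.3 (lmFit, eBayes with trend) as S.SHR(2) minus Dahl S in a two-sided test. Adjusted p values use the Benjamini-Hochberg method over all 18625 probe sets, and a call is one under 0.05. A model over strain and block gave the differences within blocks and their interaction. Log2 differences carry the SE of the model, and their intervals are 95%.

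The fits were tested on simulated data with known changes. The simulated data held block differences on only a small part of the probe sets, so they do not give the power of the strain test here. Members and lists were chosen with earlier results of the deposited data known. Beside every member, the text names called genes of the pathway lists, the 2 genes of smallest p in each list, and the 2 genes most like each member. Alternatives were pseudocounts of 1 and 64, a filter of 60% or none, values as deposited, median centring, eBayes without trend or robust, array weights, an adjusted p of 0.01, the block as a factor, the average over a gene's probe sets, and each rat left out in turn. An adjustment for the beta-actin ratio and a fit without the 2 arrays whose GAPDH 3′/5′ ratio was highest, and relations with Gstm1 centred within blocks, were added after the data were seen. The number of arrays limits the precision.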

Additional observations from a re-analysis of the deposited data

Results flagged for a closer look

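In 4 of 26 groups of 9 rats the highest or lowest rat stood apart from the others, by a gap to its neighbour of more than 0.493 of the range of the group, which chance gives in about 1 of 20 groups. Gpx3 in S.SHR(2) replicate 7 was the highest of its strain, at 13.38 against 13.28 for the next rat on the normalized log2 scale (gap 0.512 of the range), although its deposited intensity of 8678 units was not. Gpx3 in Dahl S replicate 3 was likewise the highest, at 13.38 against 13.28 (gap 0.512), although its deposited intensity of 10441 units was not. Quantile normalization sets the upper end of all arrays to the same values, and both Gpx3 gaps are the same step between such values. These 2 flags therefore do not show a rat apart in its own signal, and the rate of 1 of 20 does not apply to them. The brighter probe set of Txnrd1 was lowest in Dahl S replicate 3, at 9.09 against 9.45 (gap 0.527), with 530 units. The brighter of the 2 Srxn1 probe sets under the brightness limit was lowest in Dahl S replicate 4, at 4.38 against 5.03 (gap 0.57), with 4.8 units.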

How the results depend on the processing

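No member was called between strains under any of the 32 alternatives. These tested 9 to 13 member probe sets, or 7 member genes where a gene's probe sets were averaged. Over the 346 member values under these alternatives, the sign was kept in 304 and turned in 42, none was called, the lowest adjusted p was 0.64 and the values ran from -0.287 to 0.194. The count of all probe sets called between strains was 23, with 92 when the block was a factor, 41 with array weights, and 16 to 28 when each rat was left out in turn. The count of members called between blocks was 7 to 9. No paired analysis was possible because the labels give the strains no shared replicate numbers. Without the 2 rats farthest from the median of Gstm1, 1 of the 18 relations with Gstm1 passed (Gpx1 in Dahl S, r = -0.949), against 0 with all rats.

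Signs turned as follows, on the log2 scale, where brighter and dimmer name the probe set of a gene. For values as deposited, strain differences were 0.0558 for Gpx3, -0.00346 for Nqo1, 0.00155 for brighter Txnrd1 and 0.00818 for Cat, and block 3 minus block 1 was -0.168 for brighter Gclc and -0.55 for Gpx3. With arrays centred on medians, strain differences were 0.0388 for dimmer Gclc, 0.0994 for Gpx3, 0.0451 for brighter Txnrd1 and 0.0518 for Cat, and block 3 minus block 1 was -0.096 for brighter Gclc and -0.478 for Gpx3. With array weights the strain difference of Nqo1 was -0.0182 and block 2 minus block 1 of dimmer Txnrd1 was 0.0511. Adjusted for the beta-actin ratio, strain differences were 0.12 for dimmer Gclc, 0.0703 for Gsr, -0.00212 for Gpx1, 0.0263 for Srxn1 and 0.011 for Cat, block 3 minus block 1 was 0.0313 for Gclm and -0.0476 for Gsr, and block 2 minus block 1 was 0.0088 for dimmer Txnrd1. Without the 2 arrays of highest GAPDH ratio, strain differences were 0.037 for dimmer Gclc, -0.00516 for Gpx1, -0.00766 for Nqo1 and -0.00568 for Sod3, and block 3 minus block 1 was -0.00516 for Gpx3. The cause was not tested.

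When each rat was left out in turn, signs turned in these ranges: strain differences of dimmer Gclc from -0.112 to 0.11, Gpx1 from -0.00983 to 0.0525, Gpx3 from -0.0273 to 0.00512, Gsr from -0.214 to 0.0723, Nqo1 from -0.0244 to 0.0769, Srxn1 from -0.142 to 0.0922, brighter Txnrd1 from -0.0737 to 0.037, Cat from -0.0554 to 0.0147 and Sod3 from -0.0166 to 0.0933. For block 2 minus block 1 they were -0.139 to 0.0346 for Hmox1 and -0.113 to 0.118 for dimmer Txnrd1, and for block 3 minus block 1 they were -0.0132 to 0.0347 for Gpx3. Without Dahl S replicate 3, brighter Txnrd1 was called between blocks (limma adjusted p = 0.026), and without the 2 arrays of highest GAPDH ratio it was just past the threshold (limma adjusted p = 0.05, rounded), with 0.189 for block 3 and -0.102 for block 2. The signals of Hmox1, Nqo1 and Srxn1 were low, so the added constant compresses their fold changes.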
